A study of Mus musculus with 19 samples.

Results

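Slc5a10, Slco1a5 and Mfi2 are 3 genes of membrane proteins whose RNA answered a change of glucose unequally in islets of B6 and BLKS mice. They were chosen by gene name because of that unequal answer, and the arrays hold 4 probes for them among 41174, of which 29326 were tested, these 4 included. The 29326 probes cover 15997 genes. Slc5a10 (A_51_P509961) and Mfi2 (A_51_P324351) have 1 probe each, and Slco1a5 has a pair (A_51_P271200 and A_52_P542496). Mfi2 is an older symbol of Meltf. Since these genes were chosen by how far the strains' responses differed, the values of that difference and those of the comparisons that make it up are given below as a description, with no test.

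Islets were taken from male C57BL/6J (B6) and C57BLKS/J (BLKS) mice of 12 weeks that were neither obese nor diabetic. The islets were kept for 48 h in 11 mM glucose and then for 24 h in low (5 mM) or high (20 mM) glucose. BLKS is an inbred strain related to B6 that carries segments of the DBA genome. The groups were 5 B6 and 5 BLKS mice in low glucose, and 5 B6 and 4 BLKS mice in high glucose, with the islets of each mouse cultured and labelled apart from those of the others. RNA of each mouse (200 ng) was labelled with Cy3 and with Cy5 and read on 20 Agilent arrays, on which a B6 and a BLKS mouse of the same number and glucose concentration were mostly hybridised together. Signals are given on the log2 scale of the dye-normalized fluorescence after average intensities were made equal between arrays, and a unit is 1 scanner unit. No background was subtracted from them, and they say nothing of how many cells of a type the islets held: fewer cells and less RNA per cell cannot be told apart in whole islets.

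Cells take up sugars through facilitative carriers of the Slc2 family and through sodium-coupled cotransporters of the Slc5 family, which draw on the sodium gradient. Slc5a10 encodes SGLT5, a cotransporter of mannose and fructose best known from kidney. Slco1a5 encodes Oatp3, an organic anion transporter of bile acids and thyroid hormones best known from intestine and brain. Mfi2 encodes melanotransferrin, an iron-binding relative of transferrin that is held on the cell surface by a lipid anchor. It is no carrier of the solute carrier families, so that the name transporter fits it less well than the other genes. In beta cells, glucose entry through Slc2a2 (GLUT2) and its metabolism drive insulin release, and a day in high glucose changes the RNA of many islet genes.

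A pair of libraries went against their labels and touch each low-glucose value below. On a scale over 105 probes that differed between the strains in high glucose, with 0 at the mean of the B6 and 1 at the mean of the BLKS mice in high glucose, B6 low glucose 4, as labelled, lay at 0.987 and BLKS low glucose 5, as labelled, at -0.0272. The other B6 mice lay between -0.0523 and 0.0327, and the other BLKS mice between 0.927 and 1.01. Values are given with the labels as they stand and again without both libraries. Probes of Ins1, Ins2, Iapp and Gcg, the hormone genes that define beta and alpha cells, were saturated in 100% of their 40 channels. The median negative control spot read 51.6 to 60.9 units in Cy3 and 50.8 to 58.6 units in Cy5.

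The sequence before each gene's farthest upstream start was read from RefSeq (GRCm38.p6), in which all 3 genes had an entry. It is shown because the RNA of these genes moved with glucose, and ChREBP, a factor through which glucose controls transcription, binds paired E boxes. The motifs CACGTG and CANNTG, each read on both strands and the second containing the first, were searched in the 250 bases before the start. Capitals mark CANNTG. The windows lie on chr11:61720800-61721049 for Slc5a10, chr6:142322982-142323231 for Slco1a5 and chr16:31878560-31878809 for Meltf. The first pair of windows is on the minus strand and that of Meltf on the plus strand.
Slc5a10: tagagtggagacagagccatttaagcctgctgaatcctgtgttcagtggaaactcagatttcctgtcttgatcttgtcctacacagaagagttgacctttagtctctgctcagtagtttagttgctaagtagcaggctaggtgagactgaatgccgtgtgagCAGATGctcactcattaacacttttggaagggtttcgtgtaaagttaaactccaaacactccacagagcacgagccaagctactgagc
Slco1a5: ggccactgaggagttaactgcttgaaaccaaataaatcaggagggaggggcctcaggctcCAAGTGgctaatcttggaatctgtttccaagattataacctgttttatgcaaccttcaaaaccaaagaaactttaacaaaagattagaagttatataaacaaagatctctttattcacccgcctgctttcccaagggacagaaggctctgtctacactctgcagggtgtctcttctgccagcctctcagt
Meltf: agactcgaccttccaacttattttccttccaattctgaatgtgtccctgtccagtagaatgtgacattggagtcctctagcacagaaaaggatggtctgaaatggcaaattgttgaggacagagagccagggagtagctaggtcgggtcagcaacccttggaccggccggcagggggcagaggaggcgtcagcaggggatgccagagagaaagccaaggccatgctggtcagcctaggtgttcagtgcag
CACGTG was in 0 of these windows, and in 6.02% of the 32851 windows of the table. CANNTG occurred 1 time before Slc5a10, beginning 88 bases before the start, 1 time before Slco1a5, beginning 190 bases before it, and 0 times before Meltf, against 66.2% of all windows with a match. These are matches of letters in the reference strain, and the sequence of BLKS mice was not analysed here.

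Slc5a10 RNA was several times higher in high glucose in B6 islets and little higher in BLKS islets. In B6 mice 1 to 5, the log2 signal was 7.83, 7.79, 7.87, 7.61 and 7.79 in low glucose and 9.78, 9.83, 9.80, 10.03 and 9.57 in high glucose. In BLKS mice it was 7.58, 7.53, 7.45, 7.58 and 7.83 in low glucose (mice 1 to 5) and 8.14, 7.90, 7.83 and 8.47 in high glucose (mice 1 to 4). The 5 B6 mice in high glucose stood above all others, and the BLKS groups met at their edges, where the highest low-glucose library was the one labelled BLKS low glucose 5.

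**Figure D1:**
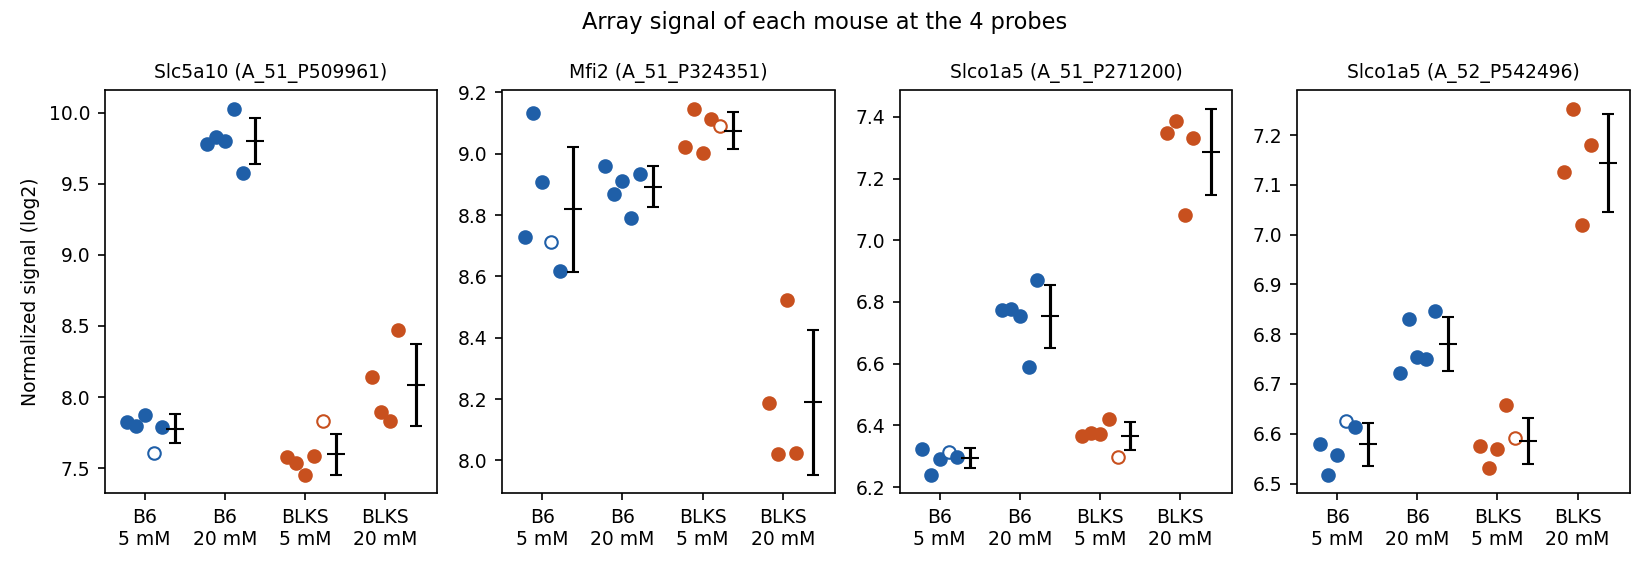
Normalized log2 signal of each mouse (points, in the order of the mouse numbers) in the 4 groups of strain and glucose (blue, B6; orange, BLKS), with the group mean and SD as black bars, for the 4 probes. Open points are mouse 4 of B6 and mouse 5 of BLKS in low glucose, whose libraries went against their labels; Slc5a10 in B6 islets in high glucose lies between 9.57 and 10.03, and Mfi2 in BLKS islets in high glucose between 8.02 and 8.52.

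The group means of Slc5a10 were 7.78 ± 0.10 (SD, n = 5) and 9.80 ± 0.16 (n = 5) in B6 islets, and 7.60 ± 0.14 (n = 5) and 8.08 ± 0.29 (n = 4) in BLKS islets, in low and high glucose. In units, these means were 219, 893, 194 and 271. The rise with glucose was 2.03 (SE 0.10, 4.07-fold) in B6 and 0.49 (SE 0.11, 1.40-fold) in BLKS islets, so that BLKS minus B6 was -1.54 (SE 0.15). Without both libraries, the responses were 1.98 (SE 0.10) and 0.55 (SE 0.11) and differed by -1.44 (SE 0.15). In order of level, B6 in high glucose came first, clear of the rest, while BLKS in high glucose, B6 in low glucose and BLKS in low glucose each overlapped the next. With both libraries left out, BLKS islets in low glucose lay below B6 islets in low glucose.

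Mfi2 RNA was lower in high glucose in BLKS islets, and differed little with glucose in B6 islets. In B6 mice, the log2 signal was 8.73, 9.13, 8.91, 8.71 and 8.62 in low glucose and 8.96, 8.87, 8.91, 8.79 and 8.93 in high glucose. In BLKS mice it was 9.02, 9.15, 9.003, 9.11 and 9.09 in low glucose and 8.19, 8.02, 8.52 and 8.02 in high glucose. All 4 BLKS mice in high glucose were below every other mouse, with BLKS mouse 3 nearest to the B6 range, whereas the B6 groups overlapped throughout.

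The means of Mfi2 were 8.82 ± 0.20 and 8.89 ± 0.07 in B6 islets and 9.07 ± 0.06 and 8.19 ± 0.24 in BLKS islets (SD, n as above), or 451, 475, 539 and 292 units. The response was 0.07 (SE 0.09) in B6 and -0.89 (SE 0.10) in BLKS islets, 1.85-fold lower, and the responses differed by -0.96 (SE 0.13). Without both libraries, they were 0.05 (SE 0.10) and -0.88 (SE 0.11) and differed by -0.93 (SE 0.14). BLKS in low glucose had the highest level and did not overlap B6 in high glucose, which overlapped B6 in low glucose.

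Slco1a5 RNA was higher in high glucose in both strains at both probes, and more so in BLKS islets. At A_51_P271200, the log2 signal of B6 mice was 6.32, 6.24, 6.29, 6.31 and 6.30 in low glucose and 6.77, 6.78, 6.75, 6.59 and 6.87 in high glucose. In BLKS mice it was 6.37, 6.38, 6.37, 6.42 and 6.30 in low glucose and 7.35, 7.39, 7.08 and 7.33 in high glucose. All mice in high glucose lay above all in low glucose, and the BLKS mice in high glucose above all B6 mice.

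At A_52_P542496, B6 mice gave 6.58, 6.52, 6.56, 6.63 and 6.61 in low glucose and 6.72, 6.83, 6.75, 6.75 and 6.85 in high glucose. BLKS mice gave 6.58, 6.53, 6.57, 6.66 and 6.59 in low glucose and 7.13, 7.25, 7.02 and 7.18 in high glucose. The order of the groups was that of the first probe: BLKS in high glucose, then B6 in high glucose, then the low-glucose groups, which overlapped each other. Across the 19 mice the probes correlated with r = 0.979 over mice that share groups and arrays. Both carry the same gene name, so that they do not count as separate findings.

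The means of Slco1a5 in low and high glucose were 6.29 ± 0.03 and 6.75 ± 0.10 in B6 and 6.37 ± 0.04 and 7.29 ± 0.14 in BLKS islets at A_51_P271200. At A_52_P542496 they were 6.58 ± 0.04 and 6.78 ± 0.05 in B6 and 6.59 ± 0.05 and 7.14 ± 0.10 in BLKS islets. The response at the former was 0.46 (SE 0.05) in B6 and 0.92 (SE 0.06) in BLKS islets, a difference of 0.46 (SE 0.08). At the latter it was 0.20 (SE 0.04) and 0.56 (SE 0.04), a difference of 0.36 (SE 0.06). Without both libraries these differences were 0.44 (SE 0.08) and 0.35 (SE 0.06).

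Slco1a5 was read close to the background, where a fold change understates the change of RNA. Above the median negative control spot of the same channel, A_51_P271200 had 22.7 ± 1.40 units in B6 and 27.2 ± 3.43 units in BLKS islets in low glucose, and 49.99 ± 5.74 and 99.9 ± 20.9 units in high glucose. A_52_P542496 had 40.3 ± 2.69, 41.2 ± 2.68, 52.1 ± 4.81 and 85.1 ± 14.7 units in the same order. Both probes were called above background in all 19 mice, a call that in Cy3 also went to a median of 83.9% of negative control spots, against 0.318% in Cy5. Slc5a10 (142 to 826 units above the control by group) and Mfi2 (232 to 497 units) were farther from it.

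**Figure D2:**
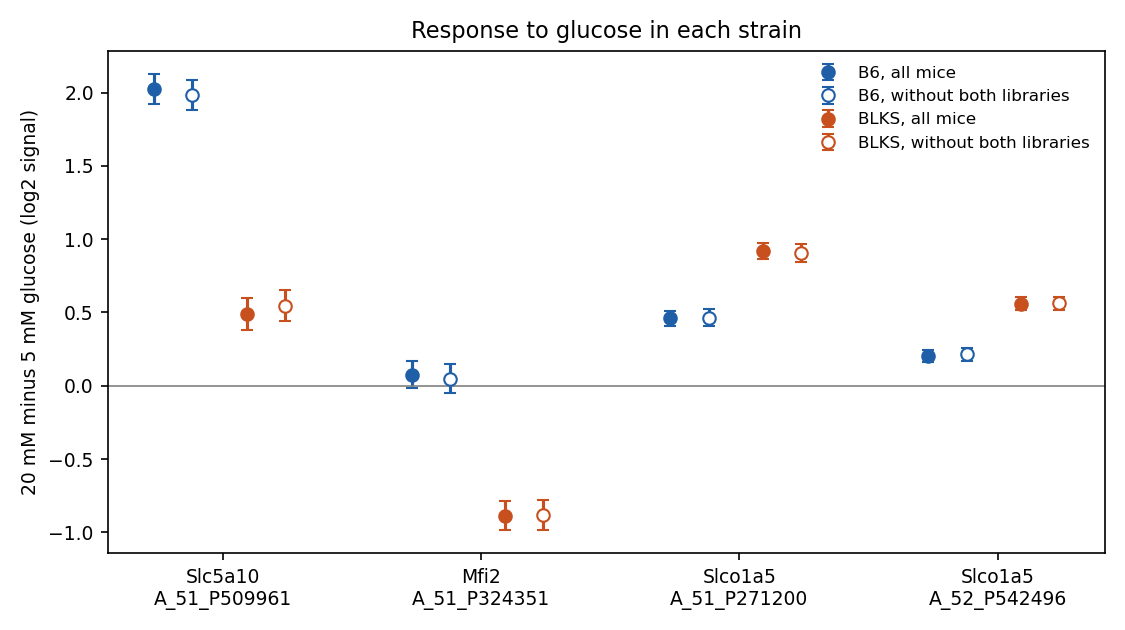
Log2 difference between high (20 mM) and low (5 mM) glucose at each probe in B6 (blue) and BLKS (orange) islets, with the SE of the fit as bars; open points leave out both libraries that went against their labels. The B6 response is the larger at Slc5a10 (2.03 against 0.49) and the smaller at both probes of Slco1a5, and only the BLKS response of Mfi2 (-0.89) is negative.

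The glucose groups of B6 islets did not overlap at 3 of the 4 probes, those of Slc5a10 and Slco1a5, as at 7.44% of all probes. Those of BLKS islets did not overlap at 3 of the 4, those of Mfi2 and Slco1a5, as at 13.3% of all probes. In high glucose the strains did not overlap at any of the 4 probes, against 14.4% of all probes. In low glucose they overlapped at all 4, with 1.2% of all probes free of overlap. Each low-glucose group held a library that went against its label. Overlap there was thus likely wherever the strains differ, so that these overlaps and the 1.2% tell little. Without both libraries, the strains did not overlap in low glucose at Slc5a10 or at A_51_P271200. Limma then called the strain difference at 15.6% of all probes in low and 15.3% in high glucose. The BLKS overlap at Slc5a10 came from the library labelled BLKS low glucose 5 alone. The response difference was called at 12 of 29326 probes (0.0409%) at an adjusted p below 0.05, a set that holds these 4, with 4 differences above and 8 below 0. Without both libraries 17 probes were called, 0 of them with a difference above 0, so that Slc5a10 and Mfi2 were among them and neither probe of Slco1a5 was. Both Slco1a5 probes also missed the threshold without scaling between arrays, in the authors' log2 values, in either dye alone and in 17 of 19 fits without 1 mouse, all but those without B6 high glucose 5 or BLKS high glucose 3. Mfi2 missed it in 3 of the 19 (without B6 high glucose 1, BLKS high glucose 1 or BLKS high glucose 2) and Slc5a10 in 0. From these counts nothing follows about the genes, since they were picked for this contrast. The last probe inside that threshold was 1 of Meox1 (difference -0.60, SE 0.11), and the first outside it 1 of Gbe1 (-0.45, SE 0.08).

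Taking each B6 mouse with the BLKS mouse on the same arrays gave the strain difference within arrays. For Slc5a10, BLKS minus B6 was -0.25, -0.26, -0.42, -0.02 and 0.05 in the 5 low-glucose pairs and -1.64, -1.94, -1.97 and -1.56 in the 4 high-glucose pairs. For Mfi2 it was 0.29, 0.01, 0.10, 0.40 and 0.47 in low and -0.77, -0.85, -0.39 and -0.77 in high glucose. Each strain difference of the high-glucose pairs was thus negative and larger in size than any of the low-glucose pairs, except for Mfi2 in pair 3, whose -0.39 was smaller in size than 0.40 and 0.47. Pairs 4 and 5 in low glucose each contain a library that went against its label.

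For Slco1a5, BLKS minus B6 ran from -0.003 to 0.14 in low and from 0.33 to 0.74 in high glucose at A_51_P271200, and from -0.02 to 0.03 and from 0.26 to 0.43 at A_52_P542496. The lowest of the high-glucose pairs was pair 3 at both probes, the pair that also had the smallest difference for Mfi2. BLKS mouse 3 in high glucose had the lowest Slco1a5, the highest Mfi2 and the lowest Slc5a10 of its group.

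**Figure D3:**
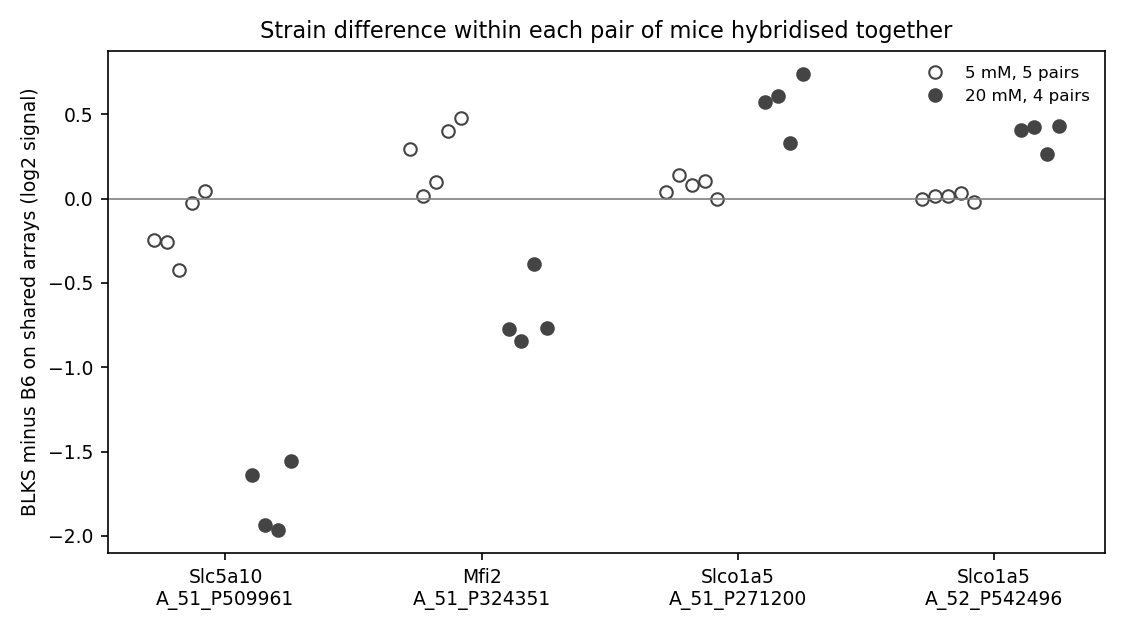
Log2 signal of the BLKS mouse minus that of the B6 mouse hybridised on the same arrays, for 5 pairs in 5 mM glucose (open) and 4 pairs in 20 mM glucose (filled), each set in the order of the mouse numbers. At Slc5a10 the high-glucose pairs lie between -1.97 and -1.56 and the low-glucose pairs between -0.42 and 0.05.

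Averages over the other factor were tested. The errors of their estimates were nearly uncorrelated with those of the contrast that chose the genes (correlation 0.0588). A difference found mainly in a single group enters both, however, so that the averages are no separate evidence. Averaged over both strains, Slc5a10 rose with glucose by 1.26 (SE 0.08, limma adjusted p = 1.04e-08) and Slco1a5 by 0.69 (SE 0.04, adjusted p = 7.56e-09) and 0.38 (SE 0.03, adjusted p = 1.05e-07) at A_51_P271200 and A_52_P542496. Mfi2 fell by 0.41 on the log2 scale (SE 0.07, adjusted p = 0.00022). All 4 probes passed this test, as did 6542 of all probes (22.3%, with 10.9% higher and 11.4% lower in high glucose). The fit took mice on shared arrays as independent, so that calls for glucose, here and below, are likely too many. For Mfi2 this average joins a BLKS response of -0.89 and a B6 response of 0.07, and describes neither strain.

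Averaged over both glucose concentrations, Slc5a10 was lower in BLKS islets by 0.95 on the log2 scale (log2 difference -0.95, SE 0.08, limma adjusted p = 5.95e-06), and Mfi2 had a difference of -0.22 (SE 0.07, adjusted p = 0.0252). For Mfi2 this average joins differences of opposite sign, 0.26 in low and -0.70 in high glucose, and describes neither concentration. Slco1a5 was higher in BLKS islets by 0.30 (SE 0.04, adjusted p = 0.000359) and 0.18 (SE 0.03, adjusted p = 0.00082). All 4 probes were called, as were 5498 of all probes (18.7%, with 8.08% higher and 10.7% lower in BLKS islets). Leaving out both libraries gave -1.0005, -0.24, 0.31 and 0.19 for Slc5a10, Mfi2 and the Slco1a5 probes, with adjusted p-values of 1.61e-08, 0.0202, 2.04e-05 and 0.00025. The Mfi2 call was lost without BLKS high glucose 2 (adjusted p = 0.0597) or without BLKS high glucose 4 (0.0609), and that of Slco1a5 at A_52_P542496 in the authors' own log2 values (0.155, adjusted p = 0.065).

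In low glucose, the strains were closer, and the mean of Mfi2 was the higher in BLKS islets. BLKS minus B6 was -0.18 (SE 0.10) for Slc5a10, 0.26 (SE 0.09) for Mfi2, and 0.07 (SE 0.05) and 0.006 (SE 0.04) for Slco1a5. In high glucose it was -1.72 (SE 0.11), -0.70 (SE 0.10), 0.53 (SE 0.06) and 0.36 (SE 0.04). Without both libraries, 4 mice a strain were left in low glucose, and Slc5a10 in BLKS islets (7.54 ± 0.06) then lay below B6 islets (7.82 ± 0.04) with no overlap, while Slco1a5 at A_51_P271200 (6.38 ± 0.02) lay above B6 islets (6.29 ± 0.04). Mfi2 and the other Slco1a5 probe still overlapped.

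The relatives of Slc5a10 were largely too dim to be read. Of 12 other Slc5 genes on the arrays 5 were tested, and 0 were called for the response difference, whose median was 0.018 against 0.002 over all probes. With 0.0409% of all probes called, this and each set below would mostly hold 0 calls, so that such counts tell little. For the averages, the shares called over all probes were 18.7% for strain and 22.3% for glucose. The values farthest from 0 were 0.12 (SE 0.06) at Slc5a6 and -0.09 (SE 0.07) at Slc5a9. Slc5a6, the sodium-coupled carrier of biotin and pantothenate, fell with glucose over both strains by 0.17 on the log2 scale (SE 0.03, limma adjusted p = 0.000274). The remaining 4, Slc5a4b, Slc5a9, Slc5a11 and Slc5a12, had averaged glucose differences from -0.04 to 0.09 and did not pass the test, nor did any of the 5 for the averaged strain difference. These 4 had group means of 5.93 to 6.13, dimmer than Slco1a5 and close to the background, where a response could hardly show. The other 7 genes, among them the intestinal and renal glucose cotransporters Slc5a1 and Slc5a2, had no probe that passed the filter on dim signals.

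**Figure D4:**
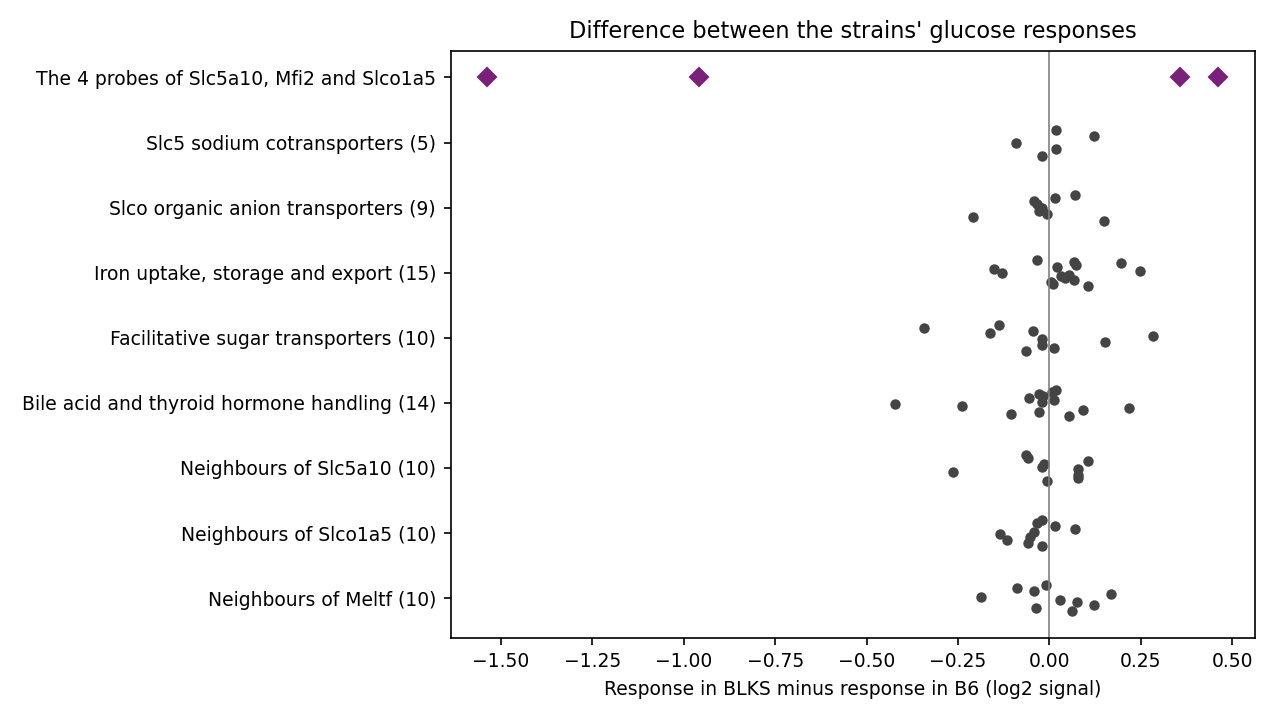
Difference between the strains' glucose responses (BLKS minus B6, log2) at the 4 probes (diamonds) and at the brightest tested probe of each gene (points) in 5 gene groups and in 3 sets of chromosomal neighbours, with the number of genes in brackets. The points lie between -0.42 and 0.28, and the diamonds at -1.54, -0.96, 0.36 and 0.46, values by which these genes were chosen. Several points, among them most of the Slc5 group, are of genes read close to the background, where a response could hardly show.

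Among 14 other organic anion transporters 9 were tested, with 0 called for the response difference (median -0.02). The value farthest from 0 was -0.21 (SE 0.09) at Slco3a1. Slco4a1, a thyroid hormone carrier, fell with glucose over both strains by 0.16 on the log2 scale (SE 0.04, adjusted p = 0.0125), and Slco2b1 by 0.09 (SE 0.03, adjusted p = 0.0169), by limma. Both moved against the direction of Slco1a5, but Slco2b1 was itself read close to the background (group means of 6.35 to 6.46). Slco1a4, Slco1b2 and Slco1c1 were read close to the background (group means of 6.01 to 6.24), where a response could hardly show. Slco1a1, Slco1a4 and Slco1a6, the nearest relatives of Slco1a5, had response differences of 0.07 (SE 0.09), 0.01 (SE 0.04) and -0.04 (SE 0.11). Their sequences are close to that of Slco1a5 and the probe sequences were not analysed here, so a share of their RNA in the Slco1a5 signal is uncertain.

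Of the genes that handle iron with transferrin relatives, 15 of 18 were tested and 0 were called for the response difference (median 0.04, with 0.25 at Ftl1, 0.19 at Tfrc and -0.15 at Fth1 farthest from 0). Over both glucose concentrations 5 were higher and 3 lower in BLKS islets. Slc11a2 (DMT1), the iron importer of endosomes, was higher by 0.33 (SE 0.05, limma adjusted p = 0.000537), while Fth1, the ferritin heavy chain, had a difference of -0.43 (SE 0.07, adjusted p = 0.000841) and Slc40a1 (ferroportin), the iron exporter, of -0.34 (SE 0.09, adjusted p = 0.0121). With glucose 4 rose and 3 fell, among them Slc39a14, a carrier of iron and zinc, which rose by 0.19 (SE 0.03, adjusted p = 0.000215), Hamp (hepcidin) by 0.37 (SE 0.13, adjusted p = 0.0412) and Ftl1, the ferritin light chain, with -0.24 (SE 0.07, adjusted p = 0.0195). Hamp was read close to the background (group means of 5.93 to 6.43), with an SD of 0.56 in B6 islets in high glucose. Tfrc, the transferrin receptor, and Trf, transferrin, passed neither test. Without both libraries, Hamp was no longer called (adjusted p = 0.0674) and Slc40a1 fell with glucose by 0.28 on the log2 scale (adjusted p = 0.000573).

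Of the facilitative sugar transporters, 10 of 11 were tested and 0 were called for the response difference (median -0.03). Slc2a5, the fructose carrier, was called for both averages, with 0.23 (SE 0.04, limma adjusted p = 0.000996) and 0.22 (SE 0.04, adjusted p = 0.000359), and had a response difference of 0.28 (SE 0.08, adjusted p = 0.519), next in size to the -0.34 (SE 0.18) of Slc2a2. Slc2a2, the islet glucose carrier, fell with glucose by 0.57 on the log2 scale (SE 0.09, adjusted p = 0.000169) and was lower in BLKS islets, with -0.42 (SE 0.09, adjusted p = 0.00421). Slc2a1 (0.86, SE 0.19, adjusted p = 0.00423), Slc2a6 (0.42, SE 0.09, adjusted p = 0.00271) and Slc2a8 (0.22, SE 0.03, adjusted p = 0.000537) were higher in BLKS islets. Slc2a4 (GLUT4) rose with glucose by 0.35 (SE 0.05, adjusted p = 5.77e-05), as did Slc2a6 and Slc2a13, so that 4 rose and 1 fell. Slc2a4 was read close to the background (group means of 6.03 to 6.47).

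Genes of bile acid and thyroid hormone handling, the known cargo of Slco1a5, were tested at 14 of 16, and 0 were called for the response difference (median -0.02, with -0.42 at Nr1h4 and 0.22 at Slc16a10). In BLKS islets 4 were lower, led by Nr1h4, the bile acid receptor FXR (-0.88, SE 0.17, limma adjusted p = 0.00186) and Dio1, a deiodinase of thyroid hormone (-0.70, SE 0.17, adjusted p = 0.00792). With glucose 2 rose, Abcb11, the bile salt export pump (0.16, SE 0.05, adjusted p = 0.023), and Slc16a10 (0.13, SE 0.05, adjusted p = 0.0468). Without both libraries these 2 were no longer called, 5 genes were lower and 1 higher in BLKS islets, and Nr1h4 fell with glucose by 0.25 on the log2 scale (adjusted p = 0.000324).

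The 10 nearest tested genes of each gene, 5 on either side in RefSeq order, held 0 calls for the response difference at each of the 3 places, as did the 5 gene groups above, with or without both libraries. As 0.0409% of all probes were called, sets of this size would mostly hold 0. Over all probes 18.7% were called for strain and 22.3% for glucose. Around Slc5a10 on chromosome 11, 5 were called for the averaged strain difference, of which Prpsap2 had -0.30 (SE 0.05, limma adjusted p = 0.000736), B9d1 0.22, Fam83g 0.20, Ulk2 0.13 and Epn2 -0.14. B9d1 and Ulk2 also rose with glucose, by 0.17 and 0.15. Around Slco1a5 on chromosome 6 there were 0, and Golt1b, a protein of Golgi transport, rose with glucose by 0.32 (SE 0.03, adjusted p = 3.16e-06). Iapp lies next to Slco1a5 in this order and was saturated. Around Meltf on chromosome 16, 3 were called for strain, with Bdh1, a ketone body enzyme, at 0.37 (SE 0.07, adjusted p = 0.00179), Dlg1 at -0.19 and Ppp1r2 at -0.11, and Acap2 (-0.28) and Dlg1 (-0.13) fell with glucose. Without both libraries 6 genes around Slc5a10 were called for strain and 1 around Meltf for glucose, the other counts being the same.

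Probes of other genes that followed these most closely were ranked by Pearson's r over the 19 mice, which share groups and arrays, so that r is a description. Nearest to Slc5a10 among the probes named here was Klf10, a transcription factor (r = 0.981, response 1.06 in B6 and 0.35 in BLKS islets), followed by Aqp4, a water channel (r = 0.966, 0.77 and 0.18), and Ddhd2, a phospholipase (r = 0.962, 0.34 and 0.09). Nearest to Slco1a5 at A_52_P542496 were Smpd1, acid sphingomyelinase (r = 0.970, 0.15 and 0.43), Mindy1 (r = 0.967) and a probe annotated A030006P16Rik, now Krtap17-1 (r = 0.964), with Prkcsh (0.963) and Cds2 (0.952) after them. For Mfi2 they were Kctd20 (0.867), Fem1b (0.863), Prkab2 (0.849), Cstf2t (0.842) and Trpm5, a cation channel (0.823). Without both libraries, r changed to between 0.842 and 0.980 over these genes.

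Between the genes themselves, Mfi2 ran against Slco1a5 over the 19 mice (r = -0.802 and -0.871), while Slc5a10 and Mfi2 had r = 0.018. These r pool the groups of strain and glucose. Mfi2 and Slco1a5 were chosen for response differences, which had opposite signs, so that their r largely restates that choice. Markers of other cells moved too, against 18.7% of all probes called for strain and 22.3% for glucose. Of 7 mesenchymal markers (Col1a1, Col1a2, Col3a1, Pdgfrb, Acta2, Dcn and Lum), all tested, 0 were called for the response difference, 4 were lower in BLKS islets over both glucose concentrations and 1 rose with glucose (3 and 0 without both libraries), and the median response was 0.39 in B6 and 0.01 in BLKS islets. Their summed signal was 2750 to 4680 units in B6 and 2460 to 3370 in BLKS islets in low glucose, and 3950 to 7620 and 2080 to 3800 units in high glucose. Of 9 acinar markers tested, 2 were higher in BLKS islets, Cela1 (0.63, SE 0.12, limma adjusted p = 0.00236) and Cela3b (0.78, SE 0.27, adjusted p = 0.049), and 3 fell with glucose. Of 6 duct markers tested, 2 were higher in BLKS islets, led by Krt19 (0.90, SE 0.17, adjusted p = 0.0019), and 1 rose with glucose. Of 4 macrophage markers tested, Lyz2 was lower in BLKS islets (-0.57, SE 0.12, adjusted p = 0.00249) and fell with glucose (-0.41). Of the islet cells' own markers, 4 of 7 for beta cells and 1 of 4 for alpha cells fell with glucose. In BLKS islets 2 beta and 1 alpha cell markers were lower, and 0 of 3 for delta and PP cells were called. These totals include the saturated Ins1, Ins2, Iapp and Gcg, which could hardly show a change. The beta cell markers that fell, Mafa, Slc2a2, Nkx6-1 and Ucn3, were all those outside the saturated set. Sst and Ppy were read near the level of the saturated probes, so that their lack of calls tells little. The acinar markers summed to 2190 to 2830 units in B6 and 2550 to 3150 in BLKS islets in low glucose, and to 1980 to 2270 and 2100 to 2740 units in high glucose. Of 5 endothelial markers, all tested, 3 were lower in BLKS islets and 3 fell with glucose, and they summed to 1720 to 2140 and 1470 to 1820 units in B6 and BLKS islets in low glucose, and to 1480 to 1760 and 1270 to 1440 units in high glucose. Without both libraries, 3 beta cell markers fell with glucose, Mafa being no longer called (limma adjusted p = 0.0714). In BLKS islets 4 acinar, 3 duct and 1 of the delta and PP cell markers were then higher, and 4 endothelial markers lower. Apart from the mesenchymal markers above, the other counts were the same. The part of these cell types in the values of Slc5a10, Mfi2 and Slco1a5 was not tested.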

How the data were processed

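Scanner output of 20 Agilent mouse arrays and a table of values per mouse were used. The deposited intensity of each dye was made by the authors with Agilent Feature Extraction (8.1 in the submitters' processing notes, 9.5.3.1 in the file headers), normalized between the dyes of an array and without background subtraction. The authors' table holds log2 values of the mean signal per mouse, not scaled between arrays, and served as an alternative.

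From the processed signals, log2 values were computed, outlier spots left out (12 to 38 per array and dye), average intensities equalised between arrays (Aquantile), and spots, dyes and repeat arrays averaged per mouse. Probes well above background in at least 4 mice entered the test. Group means were fitted with limma 3.58.1 in R 4.3.3 (with the packages jsonlite 2.0.0 and, at version 1.17.8, data.table) over all 19 mice, and p-values adjusted by Benjamini-Hochberg over 29326 probes at 0.05. The fit was also run on simulated data with independent mice and planted differences larger than those of Slco1a5. That run held no shared arrays, so that it tells nothing of their effect or of small differences. Of these probes, 24081 were matched to a symbol of RefSeq (GRCm38.p6).

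Mice that shared arrays deviated together from their group means (r 0.02 to 0.694, median 0.482, 9 pairs, against a median of -0.006 for other mice of different groups), so that the array pair was tried as a block. The text names all probes of the 3 genes. In each gene list it names up to 3 genes with the largest called averages, further called genes being given for completeness, in addition to called neighbours, the 5 most alike probes of each gene, and markers. Members and lists were chosen with earlier results of these data known. Mice are separate animals, and their number limits precision. Results for some items are not reported here.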

Additional observations from a re-analysis of the deposited data

Results flagged for a closer look

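The glucose response differed between the strains at the 4 probes: by -1.54 at Slc5a10, by -0.96 at Mfi2, and by 0.46 (A_51_P271200) and 0.36 (A_52_P542496) at Slco1a5 (BLKS minus B6, log2). These differences are the reason the genes were chosen and are no further evidence. In 16 groups of 4 or 5 mice at these probes, no mouse stood apart from the others of its group by Dixon's test, which by chance marks about 1 group in 20.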

How the results depend on the processing

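The direction at each of the 4 probes was the same in all 14 other settings and 19 fits without 1 mouse, for the response difference and both averages (the averaged glucose difference could not be fitted with fixed array pairs). The response difference of Slc5a10 was -1.74 in Cy3 alone and -1.33 in Cy5 alone, and that of Slco1a5 (A_52_P542496) 0.424 in the authors' log2 table, where its averaged strain difference of 0.155 was not called. Leaving out 1 mouse gave -1.67 to -1.45 for Slc5a10, -1.07 to -0.90 for Mfi2 and 0.42 to 0.53 and 0.32 to 0.40 for Slco1a5, and averaged strain differences of -0.28 to -0.18 for Mfi2, called in 17 of the 19 fits.

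The number of probes called moved more. For the response difference (12, of which 4 were above 0), it was 5 without scaling (0 above 0), 7 with a filter on all mice (2), in Cy3 alone (1) and in Cy5 alone (0), 4 in the authors' table (0), 17 without both libraries (0) and 273 in the methods' linear model, and with the replicate block of array pairs 47 (fixed) and 234 (random, correlation 0.545). Without 1 mouse it was 1 to 16, with 16 without B6 high glucose 5, 9 without BLKS high glucose 3 and 6 or fewer without any other mouse, of which 0 were above 0. Both Slco1a5 probes were called in 9 of the 14 settings and 2 of the 19 fits without 1 mouse, Mfi2 in 14 and 16, and Slc5a10 in 14 and 19. For the averaged strain difference (5498) it was 2995 without scaling, 2687 in the authors' table, 8540 and 9833 with the block and 9082 in the linear model. For the averaged glucose difference (6542) it was 3385 in the authors' table and 3817 with the random block. The 6542 calls take mice on shared arrays as independent, so that their number is likely too high. The causes of the other changes were not tested. The dim signal of Slco1a5, close to the negative controls, limits its fold changes, and 4 or 5 mice a group limit the precision of all values.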
